A study of Homo sapiens with 33 samples.

Results

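Tiles hTR_421 to hTR_614 are the designed oligonucleotides with the highest numbers in the hTR pool, which is named for the telomerase RNA. They were chosen by tile number and make up 31.6% of the tiles of the hTR pool, with 4850 of its 15350 barcodes at 25 per tile. The study used 3358 tiles in 5 pools. The border between hTR_420 and hTR_421 had been placed where the ratio of immunoprecipitate to Input changed in replicate 1, so the levels of these tiles in the immunoprecipitate are given as a description and support nothing. The host was HEK293T, an embryonic human kidney line, which overexpressed FLAG-hTERT and was transfected with the pool. Cells were harvested after 48 hours and fixed with 0.1% formaldehyde for 10 minutes. Both groups used here come from such cells: Input, with 3 libraries, and the FLAG immunoprecipitate, with 3 libraries, numbered as replicates 1, 2 and 3. Neither a FLAG precipitation from cells without FLAG-hTERT nor a precipitation with another antibody was among the hTR groups, so recovery with hTERT cannot be told apart from recovery by any other route.

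hTR, with the gene symbol TERC, is the RNA subunit of telomerase. It carries the template that hTERT, the catalytic protein subunit, copies into telomeric repeats. Its template and pseudoknot region and its CR4/CR5 region are known to contact hTERT. Its 3' part folds into an H/ACA domain that binds dyskerin and related proteins and stabilises the RNA, and a CAB box in that part is bound by WRAP53 (TCAB1). RefSeq gives TERC a length of 451 bases, fewer than the pool has tiles, so a tile number cannot be read as a base position. Tile sequences were not used here. Whether each tile is a stretch of hTR, where it lies and whether neighbouring tiles share sequence were not tested. No tile is therefore assigned to one of these domains.

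The 6 libraries held 7108444 to 11780535 reads. All members were read in every library, with 578 to 84276 reads per tile and library, and all passed the filter on low counts. The median member tile had 102310 reads over the 6 libraries. Of the 4850 barcodes, 791 had no read in any library. Replicate 1 stood apart from replicates 2 and 3 in both fractions, and results that rest on it are given with and without it.

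Tiles hTR_421 to hTR_614 made up a smaller part of the reads in the immunoprecipitate than in Input in each replicate. They took 59.6%, 48.8% and 50.5% of the Input reads in replicates 1, 2 and 3, and 36.4%, 24.2% and 29.9% of the immunoprecipitate reads. The 3 immunoprecipitate shares all lay under the 3 Input shares. The difference was -23.2, -24.6 and -20.6 percentage points, with a mean of -22.8 (SD 1.99, n = 3 pairs), and the share in the immunoprecipitate was 0.611, 0.497 and 0.591 of that in Input. Because the reads of a library sum to a fixed total, a smaller share for these tiles is at the same time a larger share for the rest of the pool.

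A log2 ratio was then formed for each tile within each replicate, as the log2 of its CPM (counts scaled to a common library size) in the immunoprecipitate minus that in the Input library of the same number. CPM was scaled by TMM factors, which set each library against the others on the assumption that most tiles do not change. In the fit of replicates 2 and 3 given below, 32.7% of the pool was called lower and 32.9% higher, so that assumption was not met there. The place of 0 in these ratios therefore depends on the scaling. The median log2 ratio of the members was -0.40, -1.06 and -0.91 in replicates 1, 2 and 3. Over all tiles of the pool it was 0.49, -0.09 and 0.05. The level of these medians moved with the scaling. By library size alone the medians of the members were -0.71, -1.01 and -0.75, against 0.17, -0.04 and 0.22 for all tiles. The distance between the median of the members and that of tiles hTR_1 to hTR_420 does not depend on such a factor. It was -1.26, -1.40 and -1.32, with a mean of -1.33 (SD 0.07, n = 3 pairs), so the replicates lay closer together on this measure than on the medians themselves.

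Nearly all members lay on the same side of Input. The ratio was below 0 in 173 members in replicate 1, in 191 in replicate 2 and in 192 in replicate 3, and in all 3 replicates for 173 members. By library size alone 187 members were below 0 in all 3 replicates, and by RLE size factors 170 were. Among the other 420 tiles of the pool 10 were below 0 in all 3 replicates, with 20 by library size alone and 9 by RLE size factors. The quartiles of the mean ratio over members were -0.96 and -0.65. The mean ratio was below -1 in 37 members and above -0.3 in 13. For 151 members the 3 immunoprecipitate libraries lay under all 3 Input libraries in scaled CPM, where this held for 25.2% of all tiles in the pool. By library size alone it held for 142 members and 24.8% of all tiles. For no member did they lie above all 3 (16.6% of all tiles), and by library size alone they did for hTR_513 (26.1% of all tiles).

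In a fit of all 6 libraries without pairing, the quasi-likelihood test of edgeR called 0 members lower and 0 higher, as it called 0% of the pool in either direction. An unadjusted p under 0.05 was found for 135 members in the lower direction (22.8% of all tiles) and 1 in the higher (18.2% of all tiles). DESeq2 called 51 members lower and 1 higher among the 192 with an adjusted p, where it called 11.6% lower and 20.6% higher of the 447 pool tiles with an adjusted p. With the replicate number as a block, edgeR called 158 members lower (27% of the pool) and 1 higher (28.8% of the pool). Without the block, library size alone gave 133 members lower (23.1% of the pool) and 1 higher (24.1%). Without Input replicate 1 the unblocked counts were 157 lower (29.3% of the pool) and 0 higher (15.5%), and without immunoprecipitate replicate 1 they were 26 lower (4.23%) and 0 higher (6.68%). Without any other single library, edgeR called 0 members and 0% of the pool in either direction, and 38 to 53 members had an unadjusted p under 0.05 in the lower direction (6.35% to 8.79% of all tiles). Replicates 2 and 3 did not set the border, though their values were known when the tile range was proposed. In a fit of these 4 libraries alone, edgeR called 176 members lower, 1 higher and 17 neither, where it called 32.7% of the pool lower and 32.9% higher. With the block these counts were 181 lower (33.9% of the pool) and 1 higher (32.2%). Of the other tiles called lower in these 4 libraries without the block, 24 were among hTR_308 to hTR_420, 0 among hTR_194 to hTR_307 and 1 among hTR_1 to hTR_193. No label ties the replicates to separate cultures, so the spread between libraries behind these p-values could be technical. The fits also share their variance estimate over the tiles of the pool. An SE or p given here is therefore not set by the spread of that tile's own libraries alone.

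The 8 members with the lowest mean ratio were hTR_542, hTR_537, hTR_530, hTR_562, hTR_476, hTR_543, hTR_569 and hTR_533, at -1.45 to -1.17. Tile hTR_537 had 2306, 3079 and 3703 CPM in Input replicates 1, 2 and 3 and 1118, 913 and 1257 CPM in the immunoprecipitate. Every immunoprecipitate library was thus under every Input library, and the ratio was -1.04, -1.75 and -1.56. Measured from the median of all members in the same replicate, a quantity that no scaling factor alters, hTR_537 lay at -0.65, -0.69 and -0.65, close to equal in the 3 replicates. In the fit of replicates 2 and 3 its log2 fold change was -1.53 ± 0.19 (SE, n = 2 against 2, adjusted p = 3.12e-14 in edgeR). The tile was picked by a mean ratio that includes these libraries, so this p is a description and no test.

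Tile hTR_562 had 3167, 6294 and 6242 CPM in Input and 1725, 2285 and 2040 CPM in the immunoprecipitate. The groups did not overlap, and all 24 of its counted barcodes were lower in replicates 2 and 3, against 20 of 24 in replicate 1. Tile hTR_530, with 3464, 5897 and 6599 CPM in Input, had 2583, 1557 and 2010 CPM in the immunoprecipitate. Here the replicates differed in size: the ratio was -0.42 in replicate 1 but -1.92 and -1.72 in replicates 2 and 3. Tile hTR_533 had Input levels that hardly differed (2017, 1948 and 2059 CPM) and 1216, 673 and 873 CPM in the immunoprecipitate.

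The mean of hTR_542, level with that of hTR_537, rests on unequal replicates and depends on how its barcodes are combined: as a median over barcodes it was -3.52, against -1.80 for hTR_537. Its level was 606, 388 and 338 CPM in Input and 469, 76.9 and 107 CPM in the immunoprecipitate, so the groups overlapped. The ratio was -0.37, -2.33 and -1.66 (SD 1.00). It was also 1 of the 3 members with the lowest Input level, beside hTR_512 and hTR_558. Tile hTR_558, at 328, 382 and 363 CPM in Input, had ratios of -0.04, -1.64 and -0.54, and hTR_573 had 0.24, -1.85 and -0.87. These 3 tiles, hTR_542, hTR_558 and hTR_573, had the largest differences between replicates of all members, with ranges of 1.60 to 2.09.

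At the other end of Input abundance, the members of highest level were hTR_586, hTR_510 and hTR_528. Tile hTR_528 had 6520, 7417 and 8614 CPM in Input and 3711, 2944 and 3803 CPM in the immunoprecipitate. The groups were well apart, and all 24 counted barcodes were lower in replicates 2 and 3, against 21 of 24 in replicate 1. Tile hTR_510 had 5167, 9477 and 9230 CPM in Input and 3360, 3628 and 4354 CPM in the immunoprecipitate, again without overlap. Tile hTR_586 did overlap, through Input replicate 1: it had 4406, 10521 and 11909 CPM in Input and 4298, 5124 and 5858 CPM in the immunoprecipitate. Its ratio was -0.04 in replicate 1 and -1.04 and -1.02 in replicates 2 and 3.

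Across the members the ratio of a replicate went weakly against the Input level in the other replicates. Pearson's r was -0.37, -0.23 and -0.25 for replicates 1, 2 and 3, each taken against the mean log2 Input level of the other 2 libraries, so that no Input count entered both sides. Replicates 2 and 3 were alike, so for them the Input levels on the 2 sides are still not independent. The points are tiles of the same libraries and are not independent, and no p is given.

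A single tile stood out in the opposite direction. Tile hTR_513 had 1380, 3383 and 3297 CPM in Input and 3310, 6976 and 5454 CPM in the immunoprecipitate. It was higher within every replicate, with ratios of 1.26, 1.04 and 0.73, although the immunoprecipitate of replicate 1 lay under 1 Input library, that of replicate 2. It was 1.66, 2.11 and 1.64 above the median of all members. It was the member called higher in the fit of replicates 2 and 3 (1.01 ± 0.14, SE, n = 2 against 2, adjusted p = 5.51e-12 in edgeR) and in the blocked fit (adjusted p = 0.00177 in edgeR). In the unpaired fit of 6 libraries it did not pass (0.97 ± 0.45, SE, n = 3 against 3, adjusted p = 0.115 in edgeR). Tile hTR_513 was picked by a mean ratio over these same libraries, so the p-values of all 3 fits are a description.

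The barcodes of hTR_513 went the same way. Of its 25 barcodes 13 had at least 30 reads in each replicate, and the other 12 had at most 4 reads over all 6 libraries. All 13 were higher in the immunoprecipitate in replicates 1 and 2, and 12 of 13 in replicate 3. The SD of the log2 ratio over its barcodes was 0.72, 0.50 and 0.63, where the median member tile had 1.63, 1.88 and 1.59. It was 0.79, 0.61 and 0.60 in hTR_614 and 0.88, 0.71 and 0.94 in hTR_586, both with ratios below 0. Among other members of high Input level, hTR_510 had 1.35, 1.10 and 0.71, and hTR_528 had 0.65, 2.09 and 0.46. The counted barcodes of hTR_513 had at least 887 reads each, and whether the spread goes with read number was not tested. The barcode with most reads took 16.8% of the Input reads of the tile, so no single barcode carried the value.

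Its direct neighbours differed from each other. On one side, hTR_514 had ratios of -0.61, -1.06 and -1.15, with a mean below the member median, as had hTR_511 further on the other side (-0.71, -1.22 and -1.33). Next to hTR_513 on that side, hTR_512 had the second highest mean ratio of all members, 0.18, with 200, 118 and 151 CPM in Input and 271, 143 and 134 CPM in the immunoprecipitate. It was the member of lowest Input level, its replicates differed in sign (0.44, 0.28 and -0.18), and it did not pass (adjusted p = 0.667 in edgeR with replicates 2 and 3). The remaining members among the 5 highest, hTR_579, hTR_608 and hTR_520, had mean ratios of 0.0046, -0.03 and -0.13. They were near or just under their Input level, their groups overlapped, and the sign changed with the scaling for hTR_579 (library size alone) and hTR_608 (RLE size factors).

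The border had been placed on the ratios of replicate 1, so a change there follows from the choice, and single tiles on both sides were out of order. Just outside it, hTR_418, hTR_419 and hTR_420 had mean ratios of 0.10, -0.40 and 0.55. Just inside it, hTR_421, hTR_422 and hTR_423 had -0.71, -0.74 and -0.30. The last 3 tiles of the pool, hTR_612, hTR_613 and hTR_614, had -0.54, -0.82 and -0.82. Tile hTR_419, outside, thus lay below hTR_423, inside. In replicates 2 and 3 the ratio was already below 0 before the border in hTR_418 (-0.32 and -0.31, against 0.92 in replicate 1) and in hTR_419 (-0.65 and -0.55, against -0.0057 in replicate 1).

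Within the range the ratio varied less between blocks of tiles than between single members, which averaging over tiles brings by itself. In blocks of 20 consecutive tiles (the last block holds 14) the median of the mean ratio ran from -0.88 in tiles hTR_481 to hTR_500 to -0.68 in tiles hTR_541 to hTR_560. By the mean, the block with the smallest depletion was tiles hTR_501 to hTR_520, at -0.62, which holds hTR_512 and hTR_513, though its median was -0.85. The lowest windows of 5 tiles overlapped each other, at tiles hTR_526 to hTR_530 (-1.10), hTR_527 to hTR_531 (-1.06) and hTR_529 to hTR_533 (-1.03). The highest windows, hTR_512 to hTR_516 (-0.18) and hTR_509 to hTR_513 (-0.25), both held hTR_512 and hTR_513. Pearson's r between adjacent members was 0.13, 0.13 and 0.09 in replicates 1, 2 and 3. Over all tiles of the pool, where the steps between tile ranges enter, it was 0.75, 0.71 and 0.69.

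Differences between members recurred from replicate to replicate although neighbours were not alike. Pearson's r of the ratios over the members was 0.54 between replicates 1 and 2, 0.55 between 1 and 3 and 0.73 between 2 and 3, and Spearman's rho was 0.45, 0.44 and 0.64. Without hTR_512 and hTR_513, which were singled out after their values were seen, r was 0.43, 0.46 and 0.68. Each ratio used its own pair of libraries, but the tiles of a library share its depth and preparation, so these values are a description. The SD of the ratio between members was 0.29, 0.40 and 0.34. The spread between barcodes of a tile, divided by the square root of their number, gave a median error of 0.37, 0.42 and 0.36 for an unweighted mean over barcodes, which is of the same size.

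Most barcodes followed the tiles that carry them. Among member barcodes with at least 30 reads over both libraries of a replicate, 2412 of 3848 (62.7%) were lower in the immunoprecipitate in replicate 1, 3235 of 3751 (86.2%) in replicate 2 and 3174 of 3774 (84.1%) in replicate 3. Barcodes of tiles hTR_1 to hTR_420 were lower in 19.2%, 37.5% and 36.2% of cases. In 156 member tiles most counted barcodes were lower in each of the 3 replicates. Taken singly, replicates 1, 2 and 3 had 156, 192 and 191 such member tiles. Among the 420 tiles hTR_1 to hTR_420 there were 12, 155 and 104, and the count over all 3 replicates was not taken for them. Barcodes of 1 tile share its sequence and its library and are not replicates.

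Some barcodes were missing from 1 fraction altogether. Of member barcodes with at least 30 Input reads, 50 of 3632 (1.38%) had no immunoprecipitate read in replicate 1, 291 of 3688 (7.89%) in replicate 2 and 179 of 3698 (4.84%) in replicate 3. In the other direction, 155 of 3759 (4.12%), 7 of 3236 (0.216%) and 14 of 3425 (0.409%) barcodes with at least 30 immunoprecipitate reads had no Input read. In tiles hTR_1 to hTR_420 the shares were 0.484%, 4.87% and 2.27% without an immunoprecipitate read, and 6.97%, 0.654% and 1.14% without an Input read. In both parts of the pool, replicate 1 was thus the replicate in which barcodes were lost from Input more than from the immunoprecipitate. Its immunoprecipitate held 11780535 reads and its Input 8209243, and a part of depth in this was not tested. Reads were counted without molecular identifiers in the sources used here, so a read is not an independent molecule.

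In Input itself the members had the highest median level of the 4 ranges, though not by much over their neighbours in replicates 2 and 3. Their median Input level was 2867, 2294 and 2419 CPM without TMM factors in replicates 1, 2 and 3, against 730, 771 and 793 CPM for tiles hTR_1 to hTR_420. The other ranges were unlike each other: the medians were 1232, 1868 and 1887 CPM in hTR_308 to hTR_420, 1222, 1836 and 1735 CPM in hTR_194 to hTR_307, and 396, 132 and 129 CPM in hTR_1 to hTR_193. In replicates 2 and 3 the members thus lay near hTR_194 to hTR_420, and the low level before the border came from hTR_1 to hTR_193. The step between replicates had a different sign on either side of the border. Input replicate 1 was above both other Input libraries for 159 members and below both for 25, while it was below both for 87 of the 113 tiles hTR_308 to hTR_420 and for 107 of the 114 tiles hTR_194 to hTR_307. The median log2 ratio of Input replicate 1 to the mean of replicates 2 and 3 was 0.34 in the members, -0.65 in hTR_308 to hTR_420, -0.44 in hTR_194 to hTR_307 and 1.59 in hTR_1 to hTR_193. The same ratio between immunoprecipitates was 0.52, -0.26, -0.43 and 1.54. Input replicate 1 also enters the ratios on which the border was placed, so this is not independent of the choice of tiles.

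In this respect hTR_513 was on the side of most tiles hTR_194 to hTR_420, as 1 of the 25 members with Input replicate 1 below both others. It had 1964, 2896 and 2798 CPM in Input without TMM factors and a ratio of replicate 1 to the others of -0.54, the third lowest of all members, after hTR_471 and hTR_586. The values of hTR_421, hTR_422 and hTR_423 were 0.47, 0.32 and 0.19, and those of hTR_418, hTR_419 and hTR_420 were -0.53, 0.03 and -0.65. A low value did not always come with a raised immunoprecipitate: hTR_471 and hTR_586 had mean log2 ratios of immunoprecipitate to Input of -0.94 and -0.70.

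Within the range, the number of barcodes that were read changed near hTR_501. The mean number of barcodes per tile without a read in any library was between 4.70 and 6.00 in the 4 blocks from hTR_421 to hTR_500, and between 2.85 and 3.93 in the 6 blocks from hTR_501 on. Over the 80 tiles up to hTR_500 it was 5.30 of 25, and over the 114 tiles from hTR_501 it was 3.22. The split at hTR_501 was noticed in the data. In Input, the ratio of replicate 1 to replicates 2 and 3 was 0.15 to 0.23 in the same 4 blocks and 0.38 to 0.52 in the other 6. The mean log2 ratio of immunoprecipitate to Input was -0.87 to -0.77 in the first 4 blocks and -0.83 to -0.62 in the others. The ranges overlapped, but 4 of the 6 later blocks lay above all of the first 4, with 5, 3 and 3 of 6 in replicates 1, 2 and 3 and 3 of 6 by the block median. The block from hTR_501 to hTR_520 holds hTR_513.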

How the data were processed

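The authors deposited raw read counts per tile and barcode, 1 table per pool, per the file headers. Amplicon cDNA was sequenced single-end, per the labels' protocols. The program that assigned reads to barcodes is not given in the sources used here. Each column of the hTR table was assigned to its sample by name, and 0 columns of the 5 pools were left without a sample or group. The range analysed holds 194 of the 614 tiles of the hTR pool.

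Counts were summed over the 25 barcodes of a tile. In R 4.3.3, edgeR 4.0.16 (filterByExpr, TMM, robust quasi-likelihood F test, Benjamini-Hochberg adjusted p under 0.05) was fitted to all 614 tiles of the hTR pool, and DESeq2 1.42.0 was an alternative. A prior count of 2 was used for log2 CPM, and SE was taken as |log2 fold change| over √F. Barcodes were counted with at least 30 reads over both libraries of a replicate. The code of the unblocked fit was tested on simulated data. These held no effect shared within a replicate number, so the test does not cover how that fit behaves with such an effect.

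Deviations from the group means over the 614 tiles correlated at 0.90, 0.78 and 0.69 between Input and immunoprecipitate of the same number (1, 2 and 3), so the numbers were taken to pair the libraries, and blocked counts are given. The values set replicate 1 apart but hardly separate 2 from 3: Input 3 correlated at 0.75 with immunoprecipitate 2, above its value with its own number, and Input 2 at 0.66 with immunoprecipitate 3. Values between replicate 1 and another number were -0.86 to -0.71.

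Named tiles were the 8 lowest and 5 highest mean ratios, 3 tiles on each side of the border, the last 3, the 3 highest and 3 lowest Input levels, the 3 with the largest differences between replicates, and the 3 lowest and 2 highest windows of 5. Tiles hTR_471, hTR_511 and hTR_514 were added after their values were seen. The members, lists and tests were chosen with earlier results of these data known.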

Additional observations from a re-analysis of the deposited data

How the results depend on the processing

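The count of members called lower in the unpaired fit of 6 libraries was 0, and it was 133 by library size alone, 51 with DESeq2 and 158 with the replicate number as a block. Leaving out 1 library gave 0 to 157: 157 without Input replicate 1, 26 without immunoprecipitate replicate 1 and 0 without any other. The count called higher was 0, and 1 by library size alone, with DESeq2 and with the block. RLE size factors, both other filters and leaving out the barcode of most reads in each tile kept both counts at 0; the cause was not tested. With replicates 2 and 3 alone the count called lower was 176 (32.7% of the pool), with 181 in the blocked fit (33.9% of the pool). At a log2 fold change of at least 1 it was 58, for which the share of the pool was not taken. Fits without 1 of these libraries leave a lone library in a group, so no count is given for them. The mean of the 3 member medians, -0.79, was -0.99 to -0.65 over its alternatives, and the distance to the median of the other tiles, a measure added after seeing the data, was -1.41 to -1.29. The mean ratio of hTR_579 (0.0046) was -0.028 by library size alone, -0.00034 as a median over barcodes and -0.019 to 0.033 without 1 replicate (-0.00069 without replicate 1). That of hTR_608 (-0.025) was 0.096 with RLE factors and -0.15 to 0.20 without 1 replicate, and that of hTR_418 (0.10) was -0.046 as a median over barcodes and -0.31 to 0.31 without 1 replicate. Of the other values of named tiles, 233 moved by less than the SD between replicates. Leaving out 1 replicate always shifts the mean by less than that SD. Those settings could therefore be set apart only by a change of sign. Those of hTR_542 (-1.45; -3.52 as a median over barcodes) and hTR_579 (0.13 with RLE factors) moved by more without changing sign.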
